A study of Schizosaccharomyces pombe with 28 samples.

Results

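In the fission yeast Schizosaccharomyces pombe, 5 genes that act against flocculation were followed across 28 arrays: the kinase genes lkh1 (SPAC1D4.11C) and srb10 (SPAC23H4.17C) and the corepressor genes tup11 (SPAC18B11.10), tup12 (SPAC630.14C) and ssn6 (SPBC23E6.09). They were chosen by name, through current symbols or synonyms in the probe annotation, and were 5 of the 2899 S. pombe genes with a named probe set. Each had 1 probe set. Its signal lay above the array's background, taken as percentile 95 of the probe sets for other species, on all 28 arrays, at least 22.6-fold above it for srb10 and at least 115-fold for the other members.

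Flocculation is the clumping of yeast cells through cell surface glycoproteins, the flocculins, whose genes are kept low in rich medium. Lkh1 is a LAMMER family protein kinase whose loss makes fission yeast cells flocculate. Tup11 and Tup12 are paralogous WD-repeat corepressors related to budding yeast Tup1. They act with Ssn6, a tetratricopeptide repeat protein, and are brought to genes by DNA-binding proteins. Srb10, also called Cdk8, is the cyclin-dependent kinase of the Mediator kinase module, in which it pairs with the cyclin Srb11 beside Srb8 (Med12) and Med13. Zfs1, the protein absent from the main mutant, binds AU-rich elements and speeds the decay of the mRNAs that carry them, while Cbf12 is a CSL family transcription factor that promotes flocculation.

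The strains were grown in YES, a rich yeast extract medium, at 30 °C to an optical density of about 1.0. PolyA RNA was purified, amplified, labelled with biotin and hybridised to Affymetrix yeast arrays in 3 projects. Project 488 held 3 zfs1-null and 3 WT arrays, and project 529 held 5 of each. Project 582 held 3 arrays each of a double null of zfs1 and cbf12, a zfs1-null, a cbf12-null and a WT strain. No array was of a treated culture, and the sources used here do not give mating type, markers or the number of isolates per genotype. The samples are described as biological replicates, with no word on how cultures were kept apart, so p-values measure the spread between these samples only. A MAS5 signal is relative to the array's overall brightness. Less RNA per cell and fewer cells holding it cannot be told apart.

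The deleted genes fitted the labels. The zfs1 signal was between 0.0618 and 7.70 on 14 arrays of strains without it and between 389 and 630.0 on the other 14. The cbf12 signal was between 0.142 and 0.670 on 6 arrays and between 170.2 and 1016 on the other 22. Replicate 2 of the double null agreed least with its group. Its mean Pearson r with its fellows across genes was 0.976 and its median absolute deviation 0.17 on the log2 scale. On the other 27 arrays these ran from 0.979 to 0.996 and from 0.05 to 0.14. The next lowest r was that of WT replicate 1 of project 582, and the next largest deviation that of replicate 1 of the double null. Changes of members called in comparisons with the double null are also given without its replicate 2, as are changes whose call depended on that array.

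**Figure D1:**
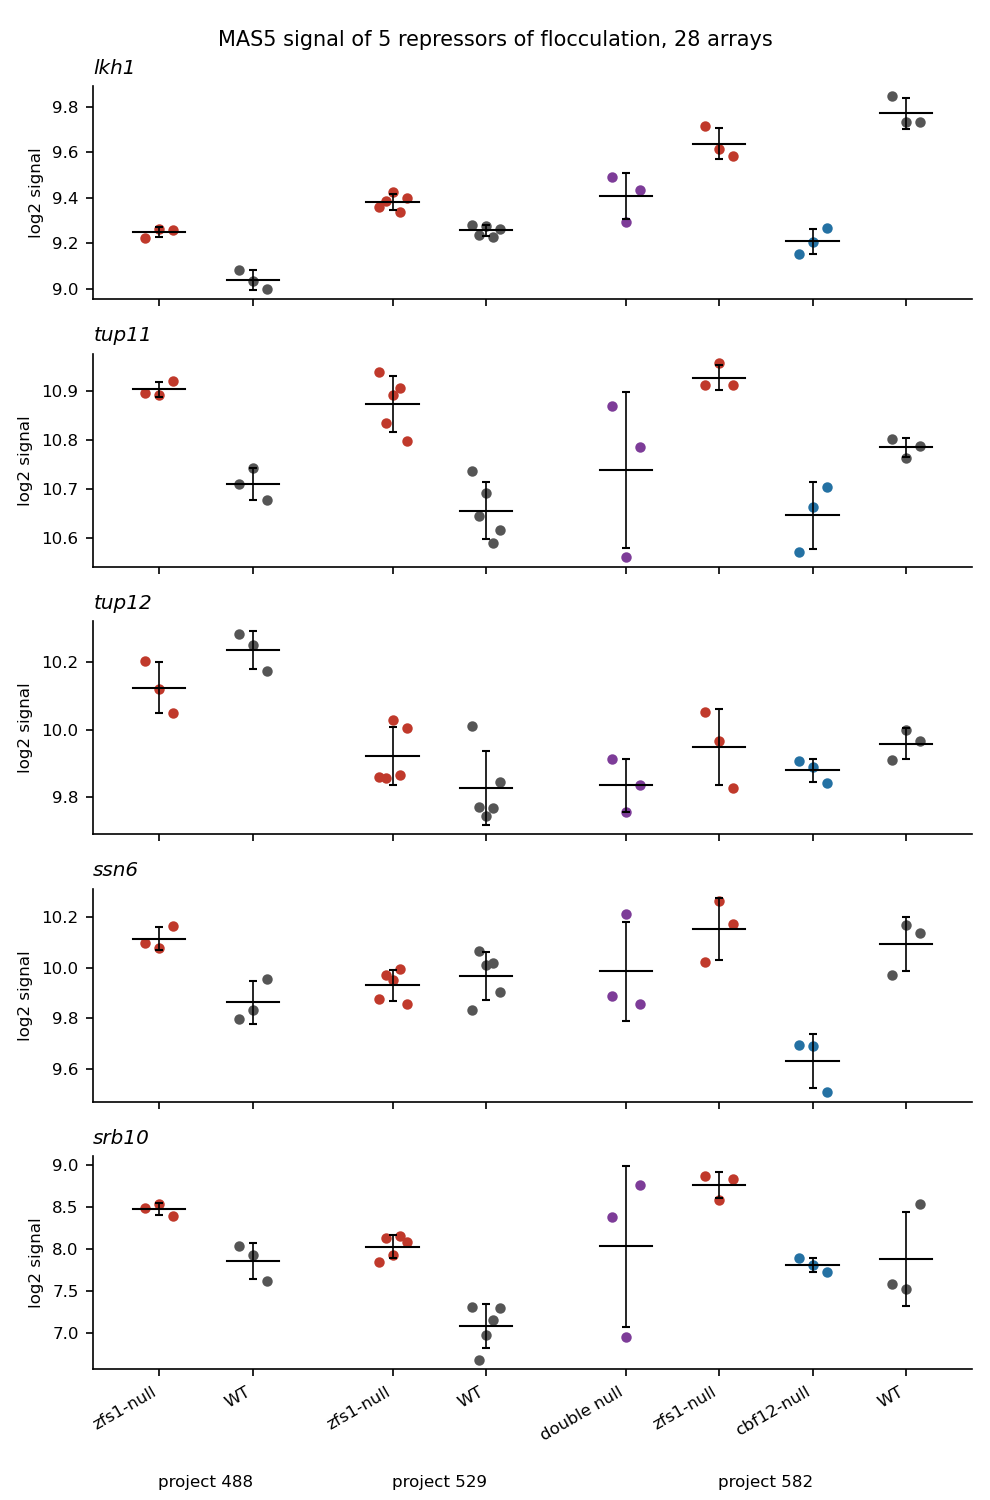
MAS5 signal (log2) of each repressor gene on every array, by strain and project. Points are arrays, horizontal bars are group means and error bars are the SD (n = 5 in project 529, n = 3 elsewhere). The srb10 points of zfs1-null strains lie above those of WT in each project, and lkh1 is highest in WT of project 582.

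The first question was what happens to these transcripts when Zfs1 is absent. The Mediator kinase gene srb10 was 1.79-fold higher in zfs1-null cells than in WT over the 3 projects, and the corepressor gene tup11 was 1.14-fold higher. For lkh1, ssn6 and tup12 the difference did not pass the test. Of the 5 genes, 2 rose and 0 fell. Among all 2899 genes 23.4 percent rose and 18.3 percent fell in this comparison, so a count of 2 among 5 was near the background. The median log2 change was 0.08 over the 5 genes and 0.02 over all genes. Genes were called at an adjusted p below 0.05 from limma, with Benjamini-Hochberg adjustment over all 2899 genes.

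The srb10 signal in project 488 was 359, 370.0 and 337 in zfs1-null cells, against 262, 243 and 196 in WT. In project 529 it was 229, 280.3, 243, 285 and 271 in zfs1-null cells, against 158, 102, 125, 143 and 157 in WT. In project 582 it was 468, 382 and 454 in zfs1-null cells, against 192, 184 and 369 in WT. Every zfs1-null array lay above every WT array of its project, with WT replicate 3 of project 582 closest to the mutant. The combined log2 change of srb10 was 0.84 ± 0.10 (SE, 22 arrays), with a limma adjusted p of 1.44e-07. By size it ranked 30 among 2899 genes, whichever the direction.

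By project the log2 change of srb10 was 0.62 ± 0.11 (SE, adjusted p = 0.00397, limma) in project 488 and 0.94 ± 0.11 (adjusted p = 9.29e-06) in project 529. In project 582 it was 0.88 ± 0.34, and the adjusted p of 0.111 in the fit of all 4 strains missed the threshold. In that fit the spread includes the double null arrays, among which srb10 varied most. With only zfs1-null and WT arrays of that project the limma adjusted p was 0.0269, and without replicate 2 of the double null it was 0.00635. Without WT replicate 3 the change was 1.21 (adjusted p = 0.0403). In project 582 srb10 passed in 2 of the 12 limma fits that left out 1 array, with adjusted p up to 0.296. In that project it passed in 2 of 9 other settings, with adjusted p up to 0.144. Over the 3 projects together srb10 passed in each of the 22 limma fits that left out 1 array and in each of 9 other settings. The srb10 change did not pass the test for a difference between projects (adjusted p = 0.539).

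The tup11 signal differed less but with little spread. In project 488 it was 1905, 1901 and 1938 in zfs1-null cells, against 1674, 1713 and 1638 in WT. In project 529 it was 1963, 1825.5, 1899, 1919 and 1781 in zfs1-null cells, against 1706, 1602, 1653, 1542 and 1570.3 in WT. Project 582 gave 1926, 1987 and 1928 in zfs1-null cells, against 1786, 1738 and 1768 in WT. As with srb10, no zfs1-null array overlapped the WT arrays of its project. Among all genes 4.76 percent lay higher without overlap in each of the 3 projects, and 4.14 percent lay lower.

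The combined log2 change of tup11 was 0.19 ± 0.03 (SE, adjusted p = 1.19e-06, limma), which ranked 655 by size among all genes. Within projects it was 0.19 (adjusted p = 0.0246) in project 488, 0.22 (adjusted p = 0.00054) in project 529 and 0.14 (adjusted p = 0.25) in project 582. The tup11 call in project 488 was kept without zfs1-null replicate 3 and lost, with adjusted p from 0.0558 to 0.0845, when any other single array was left out. The change of tup11 did not pass the test for a difference between projects (adjusted p = 0.612).

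Its paralogue tup12 did not pass in any comparison of strains, although leaving out WT replicate 1 of project 529 gave a change of 0.14 there (adjusted p = 0.0338, limma). Over the 3 projects the log2 change was 0.01 ± 0.04 (SE, adjusted p = 0.867, limma), with a 95 percent interval from -0.07 to 0.09. In project 488 the tup12 signal was between 1061 and 1179 in zfs1-null cells and between 1155 and 1247 in WT. In project 529 it was between 928 and 1044 in zfs1-null cells and between 858 and 1032 in WT, and in project 582 between 909 and 1061 in zfs1-null cells and between 963 and 1024 in WT. The groups overlapped in each project, and the sign of the combined change turned under per-array median scaling and quantile normalization.

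Whether tup11 and tup12 differed in their response was tested on the log2 difference between both genes within each array, a test added after the values had been seen. This difference was larger in zfs1-null arrays than in WT arrays by 0.30 in project 488, 0.12 in project 529 and 0.15 in project 582. Over projects tup11 changed by 0.18 more than tup12, with a two-sided exact permutation p of 0.000972 from 100800 assignments within projects and 0.00146 after adjustment over 3 such tests. The zfs1-null and WT arrays did not overlap in this difference in project 488, and overlapped in projects 529 and 582. Against ssn6, tup11 changed by 0.12 more (exact permutation p = 0.0307, adjusted p = 0.0307), with a difference of -0.06 in project 488, 0.25 in project 529 and 0.08 in project 582. That call was lost under quantile normalization (adjusted p = 0.0502) and in 6 of the 22 fits that left out 1 array.

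**Figure D2:**
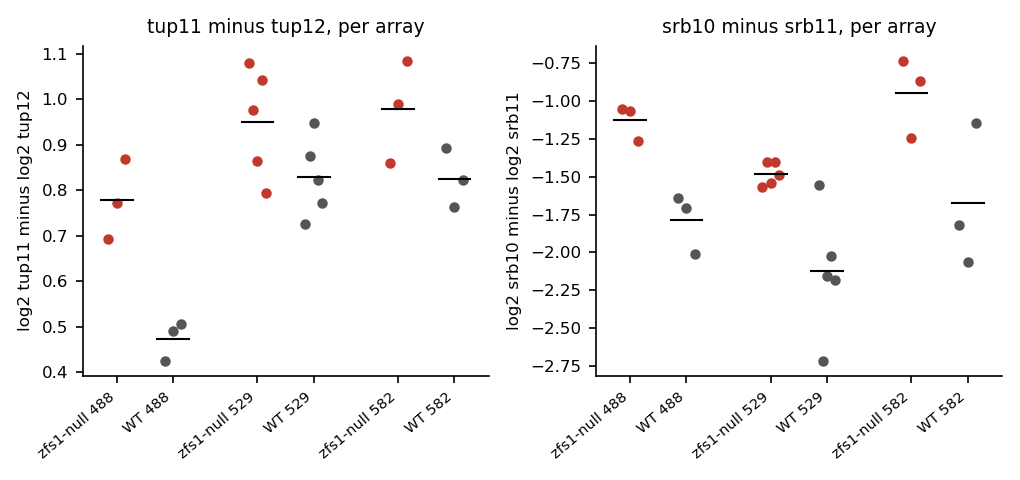
Log2 signal of tup11 minus that of tup12 (left) and of srb10 minus that of srb11 (right) on each zfs1-null and WT array, by project. Points are arrays and bars are group means. Zfs1-null means lie above WT means in every project, by 0.12 to 0.30 on the left and by 0.64 to 0.73 on the right. The height of a point depends on the probe sets and has no meaning by itself.

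The corepressor partner gene ssn6 rose in project 488 and did not pass in projects 529 and 582. In project 488 its signal was 1095, 1083 and 1149 in zfs1-null cells, against 890.3, 912 and 994 in WT, a log2 change of 0.25 ± 0.06 (SE, adjusted p = 0.0206, limma). In project 529 it lay between 927 and 1022 in zfs1-null cells and between 912 and 1072 in WT, with a log2 change of -0.04. In project 582 it lay between 1040.0 and 1229 in zfs1-null cells and between 1004 and 1152 in WT, with a log2 change of 0.06. The groups overlapped in projects 529 and 582. The combined change of ssn6 was 0.07 ± 0.04 (adjusted p = 0.212), and the test for a difference between projects gave an adjusted p of 0.0652. The ssn6 call in project 488 was lost when zfs1-null replicate 1 (adjusted p = 0.0535, limma), WT replicate 1 (0.0904) or WT replicate 2 (0.092) was left out.

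The kinase gene lkh1 differed between the projects in its response. In project 488 its signal was 597, 614 and 612 in zfs1-null cells, against 542, 523 and 512 in WT. In project 529 it was 658, 669, 687, 646 and 675 in zfs1-null cells, against 622, 604, 619.9, 599 and 614 in WT. In project 582 it was 841, 784 and 767 in zfs1-null cells, against 923, 850.5 and 851 in WT. The zfs1-null arrays lay above all WT arrays in projects 488 and 529 and below all of them in project 582. Among all genes 19.6 percent in project 488 and 18.1 percent in project 529 lay higher without overlap, and 16.9 percent lay higher and 19.2 percent lower in project 582.

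The log2 change of lkh1 was 0.21 ± 0.07 (SE, adjusted p = 0.0499, limma) in project 488, 0.12 ± 0.04 (adjusted p = 0.0219) in project 529 and -0.13 ± 0.08 (adjusted p = 0.327) in project 582. The test of the difference between projects passed (adjusted p = 0.00886, limma F test), as it did for 19.7 percent of all genes. The combined change was 0.08 ± 0.04 (adjusted p = 0.127). The lkh1 call in project 488 was lost in each of the 6 fits that left out 1 array (adjusted p from 0.0515 to 0.147), and that in project 529 was lost under per-array median scaling (0.07, adjusted p = 0.22) and quantile normalization (0.04, adjusted p = 0.359). The lkh1 call in project 529 was also lost without zfs1-null replicate 3 (adjusted p = 0.0533, limma), without WT replicate 4 (0.0501) and when the probe sets of both yeasts were fitted together (0.0553). Leaving out WT replicate 1 of project 582 gave a combined change of 0.10 with an adjusted p of 0.035.

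Within single projects, 4 of the 5 genes rose in project 488, 3 in project 529 and 0 in project 582, and 0 fell. In project 582 limma passed srb10 alone at an unadjusted 0.05, where 26.5 percent of all genes passed. Among all genes 9.87 percent rose and 9.8 percent fell in project 488, 25.7 percent rose and 16.5 percent fell in project 529, and 4.14 percent rose and 7.14 percent fell in project 582. In project 488 the count of repressor genes called ranged from 1 to 3 when single arrays were left out. In project 529 the split of all called genes was 746 higher and 477 lower, and it was 491 and 739 when array medians were set equal. In project 582 it was 120 higher and 207 lower, and 171 and 188 after quantile normalization.

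**Figure D3:**
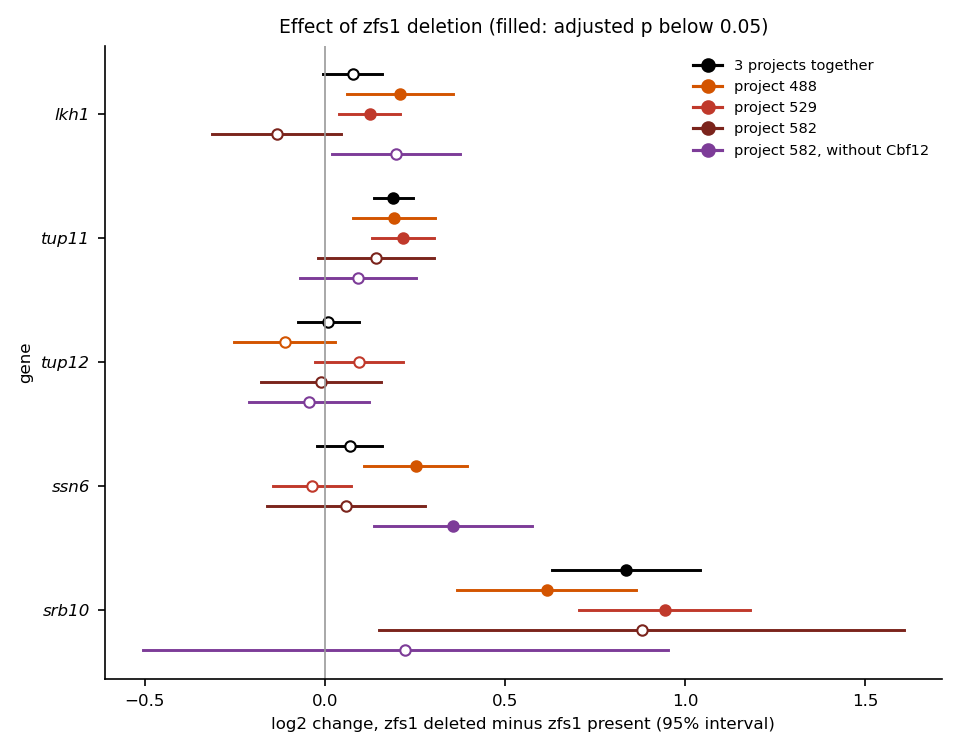
Log2 change on zfs1 deletion of each repressor gene with its 95 percent interval, over all projects, in each project and in cells without Cbf12. Filled points passed an adjusted p below 0.05 in limma. With Cbf12 present, the srb10 intervals exclude 0 in every project. Those of lkh1 lie above 0 in projects 488 and 529, while that of project 582 reaches from -0.31 to 0.04. In cells without Cbf12 the srb10 interval reaches from -0.51 to 0.95 and that of lkh1 from 0.02 to 0.38.

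Genes that work with these repressors were read from lists. In the Mediator kinase module, 2 of 4 genes rose in the combined comparison, where 23.4 percent of all genes rose and 18.3 percent fell. These were srb10, itself a member, and its cyclin gene srb11 (0.17 ± 0.06 SE, adjusted p = 0.0295, limma). By project srb11 passed only in project 529 (0.30, adjusted p = 0.0164, limma). Its change was -0.04 (adjusted p = 0.665) in project 488 and 0.15 (adjusted p = 0.425) in project 582. The other 2 module genes had combined log2 changes of 0.07 for srb8 (adjusted p = 0.171) and -0.09 for med13 (adjusted p = 0.151). Within arrays srb10 changed by 0.67 more than srb11 (two-sided exact permutation p = 0.000119, adjusted p = 0.000357), by 0.66, 0.64 and 0.73 in projects 488, 529 and 582. The zfs1-null and WT arrays did not overlap in this difference in project 488, and overlapped in projects 529 and 582. Of 17 other Mediator subunits 5 rose and 4 fell, near the shares of all genes, with a median of 0.04. They included the Mediator genes rox3 (0.48, adjusted p = 1.82e-10), med15 (0.60, adjusted p = 1.06e-08) and pmc3 (0.21, adjusted p = 0.000121), which rose, and srb4 (-0.39, adjusted p = 3.7e-06), which fell.

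Of 10 other cyclin-dependent kinase and cyclin genes 4 rose and 1 fell, where 23.4 percent of all genes rose and 18.3 percent fell. The kinase gene mcs6, of the TFIIH kinase, rose by 0.31 (adjusted p = 0.00013, limma), cdk9 by 0.15 (adjusted p = 0.000778) and pef1 by 0.26 (adjusted p = 0.00215), while csk1, which activates other such kinases, fell by 0.15. Among 6 genes of histone deacetylases and DNA-binding regulators linked to the corepressors, 3 rose and 0 fell. These were scr1, the glucose repressor (0.28, adjusted p = 0.000465), the iron repressor gene fep1 (0.19, adjusted p = 0.0432) and the deacetylase gene hos2 (0.10, adjusted p = 0.0135).

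Of 7 genes known to be repressed through Tup11 and Tup12 or their partners, 4 fell and 1 rose, with a median log2 change of -0.36. Of all genes 18.3 percent fell and 23.4 percent rose. The gluconeogenic gene fbp1 changed by -0.80 ± 0.06 (SE, adjusted p = 1.26e-11, limma), the iron permease gene fip1 by -0.60 and the ferroxidase gene fio1 by -0.47 and the ferric reductase gene frp1 by -0.36. The invertase gene inv1 rose by 0.16 (adjusted p = 0.00382), and cta3 (-0.17) and str1 (-0.13) did not pass. By project the list differed in size and sign of its median change. The median was 0.03 with 1 gene lower in project 488, where 9.8 percent of all genes fell. It was -0.71 with 5 lower in project 529 (16.5 percent of all genes) and -0.30 with 1 lower in project 582 (7.14 percent). In project 488 fip1 (-0.12), fio1 (0.03) and frp1 (0.17) did not pass. Among 6 genes of SR protein kinases and kinase substrates set beside Lkh1, 4 rose and 0 fell. These were csx1, an RNA-binding protein of the stress response (0.43, adjusted p = 3.57e-08), the SR protein genes srp1 (0.28) and srp2 (0.10), and rum1, a cyclin-dependent kinase inhibitor (0.17).

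Flocculins and their activators were counted beside the repressors. Of 9 measured genes 7 rose and 0 fell, where 23.4 percent of all genes rose and 18.3 percent fell. The median log2 change of the 9 was 0.46, against 0.08 for the 5 repressors and 0.02 for all genes. By project, 3 of the 9 rose in project 488, 7 in project 529 and 3 in project 582, and 0 fell. Of all genes 9.87, 25.7 and 4.14 percent rose in these projects. The flocculin genes gsf2, pfl2 to pfl7 and pfl9 were not analysed here. The 4 with the smallest adjusted p in the combined comparison were pfl8 (1.79), cbf12 (1.24), ldb1 (0.50) and yox1 (0.46). The only other repressor listed with a probe set, cbf11, had a change of -0.08 (adjusted p = 0.156).

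**Figure D4:**
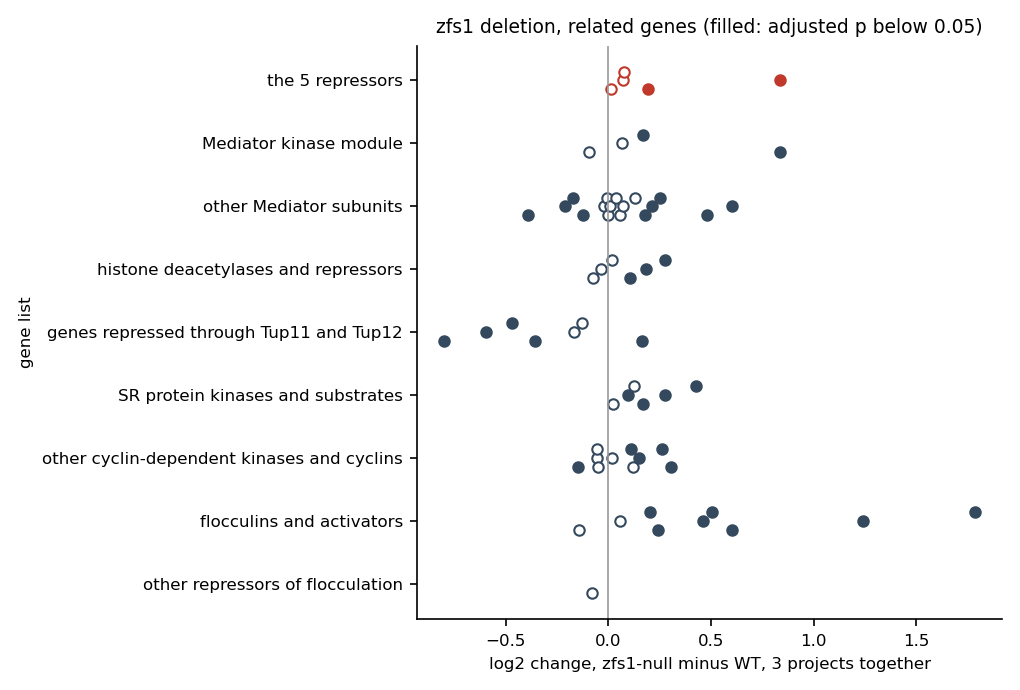
Log2 change of each listed gene in zfs1-null against WT cells over the 3 projects, 1 point per gene. Filled points passed an adjusted p below 0.05 in limma. Of the 5 repressors srb10 lies at 0.84 and the other members between 0.01 and 0.19, while the flocculin and activator list reaches 1.79 and the list of genes under Tup11 and Tup12 reaches down to -0.80.

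Project 582 also held cells that lack Cbf12 but have Zfs1. In these cbf12-null cells lkh1 stood at 0.677 times and ssn6 at 0.725 times the level of WT in that project. For tup11, tup12 and srb10 the difference did not pass. Of the 5 genes, 0 rose and 2 fell, where 9.18 percent of all genes rose and 18.9 percent fell. The median log2 change over all genes was -0.07 in this comparison. As reported, each log2 change differed by a shared -0.11 from its value with array medians set equal. The split of all called genes was 266 higher and 549 lower, 434 and 272 with array medians set equal, and 352 and 390 after quantile normalization.

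The lkh1 signal was 569, 591 and 615 in cbf12-null cells, against 923, 850.5 and 851 in WT of the same project. The groups lay far apart, and no other group of the series reached the lkh1 level of this WT strain. The log2 change was -0.56 ± 0.08 (SE, adjusted p = 0.000146, limma), and -0.46 (adjusted p = 0.000619) after setting array medians equal. In WT of project 488 the lkh1 signal was 526 ± 15.5 (SD, n = 3) and in WT of project 529 it was 612 ± 10.1 (SD, n = 5), so the cbf12-null arrays lay above WT of project 488 and overlapped WT of project 529. With WT of project 582 dropped and the zfs1 effect taken from projects 488 and 529, the change was -0.27 (adjusted p = 0.0091). For lkh1 that effect differed between projects.

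The ssn6 signal was 828, 826 and 728 in cbf12-null cells, against 1004, 1152 and 1128 in WT. The cbf12-null arrays lay below the arrays of all 7 other groups. The log2 change of ssn6 was -0.46 ± 0.10 (SE, adjusted p = 0.00367, limma). It was -0.36 (adjusted p = 0.0257) with array medians set equal and -0.45 (adjusted p = 0.00392) with WT of project 582 dropped. Both calls, of lkh1 and ssn6, held in each of the 12 fits that left out 1 array.

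The tup11 signal was 1521, 1622 and 1668 in cbf12-null cells, against 1786, 1738 and 1768 in WT, and these groups did not overlap. In this pair of groups 31.5 percent of all genes lay lower without overlap, and 15.7 percent higher. The log2 change of tup11 was -0.14 ± 0.08 (SE, adjusted p = 0.181, limma) and did not pass. For tup12 the cbf12-null arrays were between 918 and 961, against 963 to 1024 in WT, a log2 change of -0.08 (adjusted p = 0.472). Its sign turned under both other scalings.

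For srb10 the cbf12-null arrays gave 238, 223 and 211, against 192, 184 and 369 in WT. The cbf12-null values lay within the WT range. The log2 change was -0.07 with a 95 percent interval from -0.80 to 0.66 (adjusted p = 0.89, limma), a wide interval. Without WT replicate 3 the change was 0.25 (adjusted p = 0.626).

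In the Mediator kinase module 0 genes rose and srb8 fell (-0.35, adjusted p = 0.0081, limma). Of 17 other Mediator genes 0 rose and 4 fell, where 9.18 percent of all genes rose and 18.9 percent fell. The 4 included pmc4 with a change of -0.44 (adjusted p = 0.00804, limma) and srb6 with -0.37 (adjusted p = 0.0278). The other flocculation repressor, cbf11, fell by 0.38 (adjusted p = 0.00621). Of 9 flocculins and activators, mbx2 (1.35) and sre2 (0.94) rose, and the deleted cbf12 was the 1 that fell. Among genes under Tup11 and Tup12, frp1 changed by -1.39 (adjusted p = 3.19e-07) and the other 6 did not pass.

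**Figure D5:**
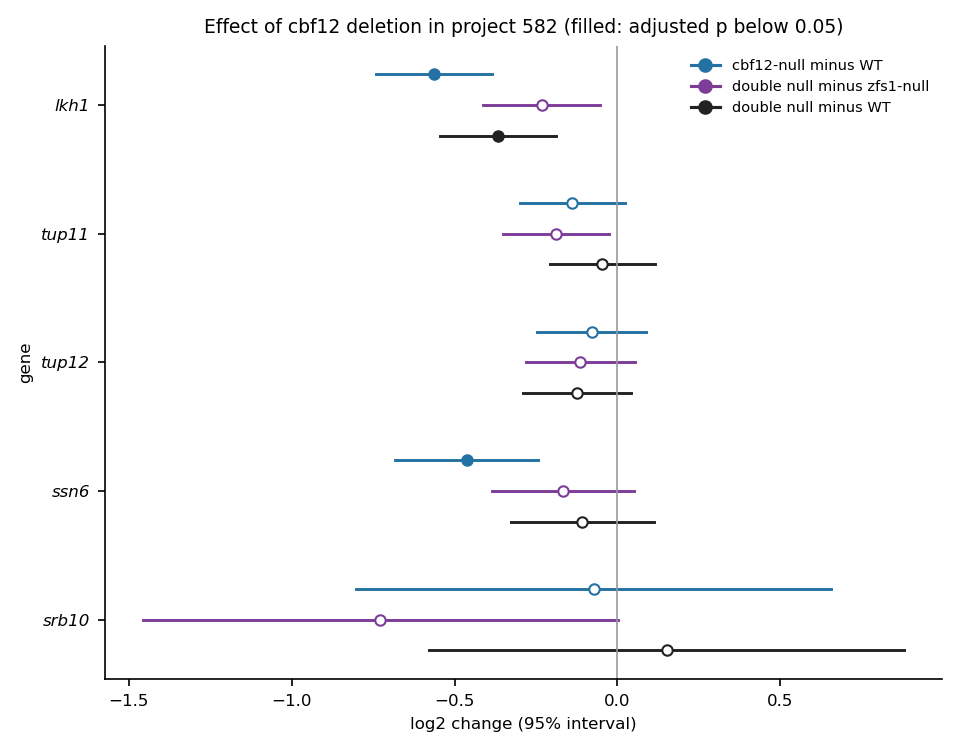
Log2 change of each repressor gene with its 95 percent interval for cbf12-null against WT, double null against zfs1-null and double null against WT, all in project 582. Filled points passed an adjusted p below 0.05 in limma. Filled points are those of lkh1 and ssn6 for cbf12-null against WT, at -0.56 and -0.46, and of lkh1 for double null against WT, at -0.37.

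The loss of Cbf12 was also examined in cells without Zfs1. Here 0 of the 5 repressor genes passed, where 3.24 percent of all genes rose and 5.76 percent fell. The lkh1 signal was 719, 628 and 691 in the double null, against 841, 784 and 767 in zfs1-null cells of the same project. These groups did not overlap. The log2 change of lkh1 was -0.23 ± 0.08 (SE, adjusted p = 0.0971, limma). For tup11 the values were 1870.0, 1511 and 1764 in the double null, against 1926, 1987 and 1928 in the zfs1-null strain, again without overlap (-0.19 ± 0.08, adjusted p = 0.131). The share of all genes lower without overlap was 19.6 percent. Without replicate 1 of the double null the tup11 change was -0.25 (adjusted p = 0.038, limma), and without replicate 2 it was -0.10 (adjusted p = 0.41). Without replicate 2 the lkh1 change was -0.18 (adjusted p = 0.262) and that of ssn6 was -0.28 (adjusted p = 0.0905), against -0.17 with all arrays. Before adjustment limma passed 2 of the 5 genes, lkh1 and tup11, at 0.05, where 26.8 percent of all genes passed. The split of all called genes was 94 higher and 167 lower, 136 and 108 with array medians set equal, and 106 and 87 after quantile normalization.

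The double null arrays spread widely for srb10, at 334, 123 and 434, against 468, 382 and 454 in zfs1-null cells. The srb10 change was -0.73 ± 0.34 (SE, adjusted p = 0.187, limma), and -0.19 (adjusted p = 0.682) without replicate 2 of the double null. In that replicate srb10, lkh1, tup11 and tup12 were lowest of the 3 arrays and ssn6, at 1185 against 949 and 928, was highest. The part of this array in the results was not tested beyond leaving it out.

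The effect of zfs1 deletion in cells without Cbf12 compares the double null with the cbf12-null strain. Here ssn6 rose, at 949, 1185 and 928 in the double null, against 828, 826 and 728 in the cbf12-null strain, and the groups did not overlap, as for 25.2 percent of all genes in this direction. The log2 change was 0.36 ± 0.10 (SE, adjusted p = 0.0154, limma), and it was 0.24 (adjusted p = 0.0555) without replicate 2 of the double null and 0.29 (adjusted p = 0.0705) without cbf12-null replicate 3. The other 4 genes did not pass. Of all genes 18.8 percent rose and 15 percent fell.

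The lkh1 signal in the double null, at 719, 628 and 691, lay above the 569, 591 and 615 of the cbf12-null strain (0.20 ± 0.08 SE, adjusted p = 0.0816, limma). For srb10 the change was 0.22 ± 0.34 (adjusted p = 0.637). Without replicate 2 of the double null, srb10 rose by 0.77 (adjusted p = 0.0158), tup11 by 0.18 (adjusted p = 0.0442) and lkh1 by 0.25 (adjusted p = 0.0316), and ssn6 did not pass. Of all genes 18.5 percent rose without that array. In this comparison the call of 4 of the 5 genes changed when that 1 array was left out. With all arrays kept, lkh1 also passed under quantile normalization (0.24, adjusted p = 0.0465, limma).

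Against WT, the double null had less lkh1, 679 ± 47.0 against 875 ± 41.4 (SD, n = 3 each), a log2 change of -0.37 ± 0.08 (SE, adjusted p = 0.00435, limma). The groups did not overlap, and 22.7 percent of all genes lay lower without overlap. The call was lost under quantile normalization (-0.25, adjusted p = 0.0503) and with WT of project 582 dropped as above (-0.08, adjusted p = 0.475). The other 4 genes did not pass, where 15.5 percent of all genes rose and 19.7 percent fell. For srb10 the change was 0.15 ± 0.34 (adjusted p = 0.766), and 0.69 (adjusted p = 0.03) without replicate 2 of the double null. Without that array lkh1 changed by -0.31 (adjusted p = 0.0136) and ssn6 by -0.22 (adjusted p = 0.0838), against -0.11 for ssn6 with all arrays.

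A direct test asked whether both deletions together differed from the sum of the single ones. None of the 5 genes passed, where 4.38 percent of all genes had a higher and 5.38 percent a lower interaction. In limma the interaction was 0.33 ± 0.12 (SE, adjusted p = 0.0932) for lkh1, 0.30 ± 0.15 (adjusted p = 0.238) for ssn6 and -0.66 ± 0.48 (adjusted p = 0.438) for srb10. It was -0.05 for tup11 and -0.03 for tup12. Before adjustment limma passed lkh1 alone of the 5 genes at 0.05, where 23.3 percent of all genes passed. Without replicate 2 of the double null the interaction was 0.39 (adjusted p = 0.0368) for lkh1, 0.18 (adjusted p = 0.372) for ssn6 and -0.11 (adjusted p = 0.839) for srb10.

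Across the 8 groups the order of levels differed between the genes. For srb10 the zfs1-null groups of projects 582 and 488 were highest and WT of project 529 lowest, at 137 ± 23.5 (SD, n = 5). The highest group did not overlap the next, and WT of project 529 did not overlap cbf12-null, the next above it. All other neighbours in the order of srb10 overlapped. For tup11 the 3 zfs1-null groups were the highest 3 and cbf12-null the lowest, and each neighbour overlapped the next. The log2 range over 28 arrays was 0.40 for tup11, 0.54 for tup12, 0.76 for ssn6, 0.85 for lkh1 and 2.19 for srb10.

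For lkh1 the order ran from WT of project 582 at 875 ± 41.4 (SD, n = 3) and zfs1-null of that project at 797 ± 38.6 (n = 3) down to WT of project 488. The WT arrays of the 3 projects formed separate ranges, 512 to 542, 599 to 622 and 850.5 to 923. For tup12 both groups of project 488 were highest, with WT at 1207 ± 47.3 and zfs1-null at 1118 ± 59.3 (SD, n = 3 each). They overlapped each other, and neither overlapped WT of project 582, the next in order. For ssn6 cbf12-null was lowest at 794 ± 57.5 (SD, n = 3) and did not overlap the next group, while all other neighbours overlapped.

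Likeness of pattern was taken as the Pearson r over 28 arrays after subtracting the mean of the WT arrays of each project, which the arrays of a project share. Closest to srb10 were vtc4 (0.87), psm1 (0.87) and gyp2 (0.87). Closest to lkh1 were tra2 (0.95), set9 (0.95) and cft2 (0.93), and closest to tup11 were avt5 (0.92), gma12 (0.90) and ypt4 (0.88). For ssn6 they were mrp10 (0.84), cbp6 (0.83) and cdk9 (0.82), and for tup12 str2 (0.85), tor1 (0.77) and nup186 (0.76). Among the members themselves r was highest for tup11 with srb10 (0.78) and with lkh1 (0.74), and it was 0.38 for tup11 with tup12 and -0.10 for tup12 with ssn6.

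Neighbouring genes in the annotation were examined because the sources used here do not say which strand the probes read. The annotation places lkh1 in overlap with the coding gene trz1 and with noncoding RNAs. It places srb10, tup11 and ssn6 in overlap with noncoding RNAs only. Signal of a member and of a transcript that overlaps it cannot be told apart from the table alone. On zfs1 deletion trz1 had a log2 change of -0.10 (adjusted p = 0.0976, limma), and on cbf12 deletion 0.05 (adjusted p = 0.747). On the other side of lkh1, rad15 rose by 0.24 on zfs1 deletion (adjusted p = 0.00102) and changed by -0.59 on cbf12 deletion (adjusted p = 0.0409). Beside ssn6, rgp1 rose by 0.21 on zfs1 deletion (adjusted p = 0.00305) and changed by -0.17 on cbf12 deletion (adjusted p = 0.0975). Beside srb10, rbx1 changed by 0.05 (adjusted p = 0.233) on zfs1 deletion and by 0.09 (adjusted p = 0.442) on cbf12 deletion. Beside tup12, tsc2 rose by 0.12 (adjusted p = 0.0111) and gti1 changed by -0.29 (adjusted p = 0.0151) on zfs1 deletion, and on cbf12 deletion they changed by -0.38 (adjusted p = 0.00932) and 0.51 (adjusted p = 0.0177).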

How the data were processed

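The authors deposited 1 MAS5 intensity per probe set and array on a linear scale, per the labels and the submitters' processing notes. The sources used here give no MAS5 version, scaling setting or detection call. The trimmed mean, with 2 percent left out at each end, was between 500.1 and 500.2 on all arrays, so a change shared by most transcripts is not visible. Amplification before labelling can distort differences. No sequences of the members are printed.

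Of 10928 probe sets, 2917 named 1 S. pombe gene. The annotation of assembly ASM294v3 gave current symbols, and each gene was read from its brightest probe set by mean log2 signal, which left 2899 genes. Signals were log2-transformed and fitted with limma 3.58.1 in R 4.3.3, with an intensity trend. The combined zfs1 comparison used 22 arrays and a project term, and project 582 was fitted with 4 strains. Tests of changes were two-sided, and the difference between projects was an F test. Precision is limited by the number of arrays. The script was tested on simulated data.

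The members, gene lists and tests were chosen with earlier results of these data known. Named were the 5 members, up to 4 called genes per list and comparison, by smallest adjusted p, and the 3 genes closest in pattern to each member. Other genes named from a list were chosen after their values were seen. The within-array differences and the list counts without replicate 2 of the double null were added after seeing the data.

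The sources used here do not say whether same replicate numbers pair the samples, and the main fits took them as unpaired. Of 26 same-numbered pairs 11 had a correlation of deviations above 0.1. Some other pairs also exceeded it, with highest values of 0.11 in project 488 and 0.29 in project 582. For same-numbered pairs the highest values there were 0.16 and 0.31. In project 529 the median was 0.0902 for same-numbered pairs and -0.0012 for other pairs, whose highest value was 0.0836. In projects 488 and 582 it was -0.0215 and 0.0134 for same-numbered pairs, against -0.0466 and 0.0110 for other pairs. Alternatives covered scaling, an offset, the prior variance, filters, probe sets, replicate block, arrays in the fit and leaving out arrays.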

Additional observations from a re-analysis of the deposited data

Results flagged for a closer look

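The effect of zfs1 deletion on lkh1 differed between the 3 projects by a direct test (adjusted p = 0.00886, limma F test). The log2 change was 0.21 in project 488, 0.12 in project 529 and -0.13 in project 582, with a WT signal of 526 ± 15.5 in project 488 (SD, n = 3), 612 ± 10.1 in project 529 (SD, n = 5) and 875 ± 41.4 in project 582 (SD, n = 3). The test passed in all 22 fits that left out 1 array, with adjusted p from 0.0048 to 0.0328.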

How the results depend on the processing

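Another fit took all probe sets of both species together, so it tested many more probe sets. Its counts of called genes are given here with the reported count in brackets. Loss of Zfs1 gave 1876 (1207) over all projects, 864 (570) in project 488, 1861 (1223) in project 529 and 511 (327) in project 582. Loss of Cbf12 gave 1249 (815) where Zfs1 was present and 481 (261) where it was absent. Between double null and cbf12-null cells the count was 1505 (980). Between double null and WT cells it was 1547 (1018), and the interaction had 510 (283). That fit called 2 repressor genes in project 488. Leaving out the dimmest 20 percent removed srb10 from the table, and 1 repressor gene was called over all projects and 2 in project 488, where lkh1 was also lost (adjusted p = 0.0585, limma). Without a project term 481 genes were called over all projects. With only the arrays compared, 1 repressor gene was called for zfs1 deletion in project 582, and 164 and 599 genes for cbf12 deletion without Zfs1 and for the double null. Quantile normalization gave 1 repressor gene in project 582, 2 for zfs1 deletion without Cbf12, 2 (with 321 genes) for the difference between projects and 0 (with 601 genes) for the double null. Median scaling and the replicate block each gave 2 for the difference between projects, with ssn6 at an adjusted p of 0.0321 and 0.0222 (limma). The replicate block also lost lkh1 in project 488 (adjusted p = 0.0683) and changed no other call of the 5 genes. With WT of project 582 dropped, the double null had 0 repressor genes called and the interaction 631 genes. Quantile normalization left the excess of tup11 over ssn6 at 0.12 with an adjusted exact permutation p of 0.0502, and leaving out arrays gave 0.10 to 0.14. For these shifts the cause was not tested.

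Some changes that did not pass with all arrays turned sign. For tup12 the change on zfs1 deletion was -0.0135 (quantile) and -0.0090 (median scaling) over all projects, and -0.0058 to 0.0254 when single arrays were left out. In project 582 it was 0.0182 and 0.0142 under these scalings, with -0.0624 to 0.0497 without single arrays. On cbf12 deletion tup12 was at 0.0299 and 0.0290 and srb10 at 0.0396 and 0.0353 under these scalings, and srb10 at -0.25 to 0.25 without single arrays. In the double null against WT tup11 was at 0.0502 with median scaling, 0.0198 with WT of project 582 dropped and -0.11 to 0.0421 without single arrays, and srb10 at -0.21 to 0.69. Without single arrays ssn6 in project 582 was at -0.0013 to 0.13, srb10 on zfs1 deletion without Cbf12 at -0.14 to 0.77, and the interaction at -0.12 to 0.0384 for tup11 and -0.0948 to 0.0172 for tup12.

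Leaving out single arrays gave 312 to 759 genes and 1 to 3 repressor genes in project 488, 183 to 544 and 0 to 1 in project 582, 490 to 1068 genes for cbf12 deletion with Zfs1, and 120 to 446 genes with 0 to 1 repressor genes without Zfs1. The repressor genes called numbered 1 to 2 for the difference between projects, 0 to 3 for zfs1 deletion without Cbf12, 1 to 2 for the double null and 0 to 1 for the interaction. With array medians set equal, the split of called genes was 659 higher and 383 lower for the double null, against 448 and 570 as reported, and 99 and 186 for the interaction, against 127 and 156.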

Other observations

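In cells without Cbf12, srb8 of the Mediator kinase module had a log2 change of 0.46 ± 0.09 (SE, adjusted p = 0.00116, limma) in the double null against the cbf12-null strain, and srb11 one of 0.32 ± 0.12 (adjusted p = 0.0432). These were 2 of the 4 module genes, where 18.8 percent of all genes rose. Without replicate 2 of the double null srb8 changed by 0.53 (adjusted p = 0.000185) and srb11 by 0.21 (adjusted p = 0.158), while srb10 rose by 0.77 (adjusted p = 0.0158). The count of 2 in 4 was then made up of srb8 and srb10.

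Genes known to be repressed through Tup11 and Tup12 were lower in the double null than in WT, where tup11, tup12 and ssn6 did not pass. Of 7 such genes 6 fell and 0 rose, where 19.7 percent of all genes fell, and the median log2 change was -1.40, against -0.04 for all genes. Without replicate 2 of the double null 6 fell and 0 rose, with a median of -1.23, where 17.6 percent of all genes fell. With all arrays the largest changes in limma were those of fip1 (-1.77, adjusted p = 8.6e-06), the invertase gene inv1 (-1.45, adjusted p = 1.19e-06) and frp1 (-1.44, adjusted p = 1.64e-07). The list is made up mainly of iron uptake and carbon source genes.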
